A study of Mus musculus with 24 samples.

Results

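The 9 genes described here encode enzymes that write and erase methylation at the fifth carbon of cytosine in DNA, and proteins linked to its removal. They are the DNA methyltransferases Dnmt1, Dnmt3a and Dnmt3b, the dioxygenases Tet1, Tet2 and Tet3, and the GADD45 genes Gadd45a, Gadd45b and Gadd45g. They were chosen by symbol, and all 9 were found in the counts of every library, among 49568 gene symbols. All 9 also passed the filter on low counts and were among the 20187 genes tested.

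The study asked whether MSK1, a kinase that links neuronal signalling to CREB and histone phosphorylation, is needed for the response of the hippocampus to enrichment. Poly(A) RNA was sequenced from the hippocampus of 24 male Aged mice on a C57-Bl/6J background, 21 to 23 months old, with 1 library per mouse and 6 mice in each of 4 groups. WTSH mice were WT and standard-housed, WTEE mice were WT and enriched, KDSH mice were MSK1 KD and standard-housed, and KDEE mice were MSK1 KD and enriched. Enriched mice had lived from 18 months of age in larger groups, in rat cages fitted with toys, a ladder and a wheel. Standard-housed mice had stayed in smaller groups in mouse cages, and both kinds of cage held a cardboard tube. The cage of each mouse was not given in the sources used here, so cage and housing cannot be told apart. MSK1 KD mice were homozygous for a D194A point mutation that inactivates the kinase throughout the body. They were bred as a line separate from the WT line, so genotype and line cannot be told apart. The study kept 21 libraries, 4 of WTSH, 6 of WTEE, 5 of KDSH and 6 of KDEE, whereas it dropped samples 4 and 7 of WTSH and sample 6 of KDSH. Values below are over these 21 libraries unless all 24 are named.

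In the mammalian brain, Dnmt1 copies methylation onto the new strand at replication, whereas Dnmt3a and Dnmt3b add it to unmethylated sites. TET enzymes oxidize 5-methylcytosine to 5-hydroxymethylcytosine, which is abundant in neurons, and to further products that base excision repair replaces with cytosine. GADD45 proteins are small stress-response proteins without enzyme activity of their own, which have been linked to the recruitment of this repair. Gadd45b is known as an activity-induced gene of hippocampal neurons.

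The GADD45 genes were the members with an unadjusted p under 0.05 by edgeR over the 21 libraries, so the sequence upstream of each is shown, 5′ to 3′ on the strand of the gene and ending just before the annotated start. They were read from RefSeq windows of GRCm38.p6, and capitals mark CpG dinucleotides, the sites at which DNA methylation is placed.
Gadd45a, 200 bases, chr6:67037458-67037657, minus strand: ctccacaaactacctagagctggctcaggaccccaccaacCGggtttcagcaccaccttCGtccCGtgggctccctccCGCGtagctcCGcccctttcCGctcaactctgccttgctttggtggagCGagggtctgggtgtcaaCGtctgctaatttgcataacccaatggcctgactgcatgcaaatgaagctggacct
Gadd45b, 232 bases, chr10:80929841-80930072, plus strand: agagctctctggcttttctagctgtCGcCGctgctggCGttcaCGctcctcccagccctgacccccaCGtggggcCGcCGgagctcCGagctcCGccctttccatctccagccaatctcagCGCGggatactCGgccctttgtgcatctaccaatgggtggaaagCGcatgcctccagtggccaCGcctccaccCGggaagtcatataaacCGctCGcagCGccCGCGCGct
Gadd45g, 250 bases, chr13:51846425-51846674, plus strand: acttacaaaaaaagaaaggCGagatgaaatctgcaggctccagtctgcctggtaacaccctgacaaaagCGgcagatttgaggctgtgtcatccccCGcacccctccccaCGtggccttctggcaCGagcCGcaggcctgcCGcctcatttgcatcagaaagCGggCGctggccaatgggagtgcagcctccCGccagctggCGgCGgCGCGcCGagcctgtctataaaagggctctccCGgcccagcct

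The stretch upstream of Gadd45a held 9 CpG dinucleotides, that of Gadd45b held 21 and that of Gadd45g held 16. In the RefSeq windows of 300 bases around the start, from 250 before to 50 after, Gadd45a had 14 CpG, Gadd45b 24 and Gadd45g 21, against a median of 7 over 32851 mouse windows. The other members covered a wider range, from 2 CpG in 1 of the 3 windows of Dnmt1 to 57 in the window of Tet2. The binding site of CREB, TGACGTCA, was in 1.79% of all windows and in none of the 13 windows of the 9 genes. The shorter site TGACG, or on the other strand CGTCA, was in 20.8% of all windows and in 1 of the 13, that of Tet2. These letters were searched on both strands, every full site also holds the shorter one, and their absence from a window says nothing about binding elsewhere.

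Gadd45g lies at chr13:51846678-51848468 (GRCm38), Gadd45b at chr10:80930073-80932204 and Gadd45a at chr6:67035096-67037457. The methyltransferases lie at chr9:20907209-20959888 (Dnmt1), chr12:3806007-3914443 (Dnmt3a) and chr2:153649450-153687730 (Dnmt3b). The TET genes lie at chr10:62804570-62908996 (Tet1), chr3:133463679-133545139 (Tet2) and chr6:83362373-83459084 (Tet3). All 9 are protein coding, and counts cover their exons. Gadd45a shares 337 exonic bases, 19.1% of its exons, with E230016M11Rik on the opposite strand. Since strand was not used in counting, read pairs from the shared bases cannot be assigned to 1 of these genes. The counts of Gadd45a can thus miss such pairs, while its level per exonic length below uses all of its exons. The overlap was under 1% of the exons for Dnmt3a and Tet2 and 0 for the other members.

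The GADD45 genes are short and the TET genes long: the longest annotated transcript was 1223 bases for Gadd45a, 1284 for Gadd45b and 1071 for Gadd45g, against 14369 for Tet1, 9179 for Tet2 and 10904 for Tet3. It was 5870 bases for Dnmt1, 9685 for Dnmt3a and 4320 for Dnmt3b.

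Read pairs on genes numbered 27410239 to 71907130 in the 21 libraries, and 15800187 to 39585901 in the 3 left out. Structural RNA genes held at most 3.23% of the counts in the former, and 26.2%, 26.1% and 7.06% in WTSH sample 4, WTSH sample 7 and KDSH sample 6. All 8 markers of hippocampal neurons had at least 10 counts in every kept library, and the 5 astrocyte, 5 oligodendrocyte, 5 microglia and 5 endothelial markers did too. Over both genotypes, 5 of 5 blood, 6 of 8 choroid plexus, 4 of 5 oligodendrocyte and 2 of 5 endothelial markers had higher values in enriched mice at an unadjusted p under 0.05, with 0 past the adjusted threshold by edgeR. So did 1 of 5 astrocyte and 1 of 5 microglia markers, and of 8 hippocampal neuron markers 1 was higher and 1 lower. Of all genes tested, 18.9% were at that p in either direction. For choroid plexus it was 0 of 8 in WT (6.55% of all genes at that p) and 8 of 8 in MSK1 KD mice (11.6%). For oligodendrocytes it was 0 of 5 and 4 of 5, with a median log2 difference of 0.20 and 0.28. Of 4 pituitary markers tested, 2 were higher in WTEE than in WTSH and 3 were lower in KDEE than in KDSH at that p. The high pituitary level in KDSH was that of 1 library, sample 8, at 0.024% of counts against 0.00089% in sample 1, the next highest. The summed pituitary markers were 1.84 to 245 CPM in KDSH (median 2.28) and 2.11 to 3.13 in KDEE (median 2.62). They were 2.11 to 2.75 CPM in WTSH and 2.19 to 27.8 in WTEE. The part of these cell types in the differences below was not tested, other than by the fits named. DESeq2 called 4 of the 5 blood genes and 0 of the 8 choroid plexus genes over both genotypes, and 1 of the latter, Ttr, between KDEE and KDSH. The summed blood markers were 56.1 to 72.8 CPM (counts per TMM-adjusted library size) in WTSH, 56.2 to 392 in WTEE, 37.0 to 77.5 in KDSH and 72.6 to 242 in KDEE. The summed choroid plexus markers were 31.6 to 4436 CPM in WTSH (median 75.9) and 47.1 to 5986 in WTEE (median 77.2). They were 26.9 to 109 in KDSH (median 43.1) and 88.9 to 9770.3 in KDEE (median 117). These markers held 0.45% of counts in WTSH sample 19, and 0.53% and 0.59% in WTEE samples 10 and 13. In KDEE samples 12 and 14 they held 0.96% and 0.27%, and in every other kept library at most 0.012%. The level of Rps6ka5, which encodes MSK1, does not check the genotype labels, because the mutation changes 1 residue and leaves the transcript in place. It was 0.09 ± 0.07 (SE) higher in MSK1 KD mice on the log2 scale.

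WTEE sample 10 stood apart from the other kept libraries in the balance of long and short transcripts. For each library, the median log2 deviation of 1722 genes with transcripts of at most 1500 bases was subtracted from that of 910 genes with transcripts of at least 8000 bases, members left out. This long-minus-short index was -1.29 in WTEE sample 10 and between -0.34 and 0.32 in the other 20 kept libraries. Values without this library are given beside the results that it moves.

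Per exonic length, Gadd45g had the highest level of the 9 genes and Dnmt3b the lowest. The level of Gadd45g was 16.6 ± 3.72 RPKM (read pairs per kilobase of exon, scaled by library size, mean ± SD, n = 21), 8.28 ± 0.62 for Dnmt1 and 7.81 ± 1.40 for Gadd45b. Dnmt1 and Gadd45b did not differ beyond their spread, with Dnmt1 the higher in 13 of 21 libraries. Gadd45b was above Dnmt3a, at 5.06 ± 0.67 RPKM, in 20 of 21 libraries, and Dnmt3a was above Tet3, at 3.63 ± 0.55 RPKM, in 21 of 21. With the longest transcript as the length, Dnmt3a was at 8.70 ± 1.16 RPKM and Gadd45b at 9.66 ± 1.73, which overlap by 1 SD each.

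Tet2 followed at 2.43 ± 0.45 RPKM, Gadd45a at 1.73 ± 0.38, Tet1 at 0.81 ± 0.13 and Dnmt3b at 0.19 ± 0.04. Tet2 and Gadd45a overlapped by 1 SD each, with Tet2 above in 19 of 21 libraries, while Tet1 was above Dnmt3b in 21 of 21 with ranges apart. With the union of exons as the length, the maintenance enzyme Dnmt1 was thus the most abundant methyltransferase transcript and Tet3 the most abundant TET transcript at each group mean. With the longest transcript, Dnmt1 was at 10.4 ± 0.78 RPKM and Dnmt3a at 8.70 ± 1.16. Tet3 was then at 5.55 ± 0.84 and Tet2 at 4.47 ± 0.83, and each of these pairs overlapped by 1 SD each. Dnmt3b had 23 to 62 counts per library, so its differences carry the largest counting error.

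**Figure D1:**
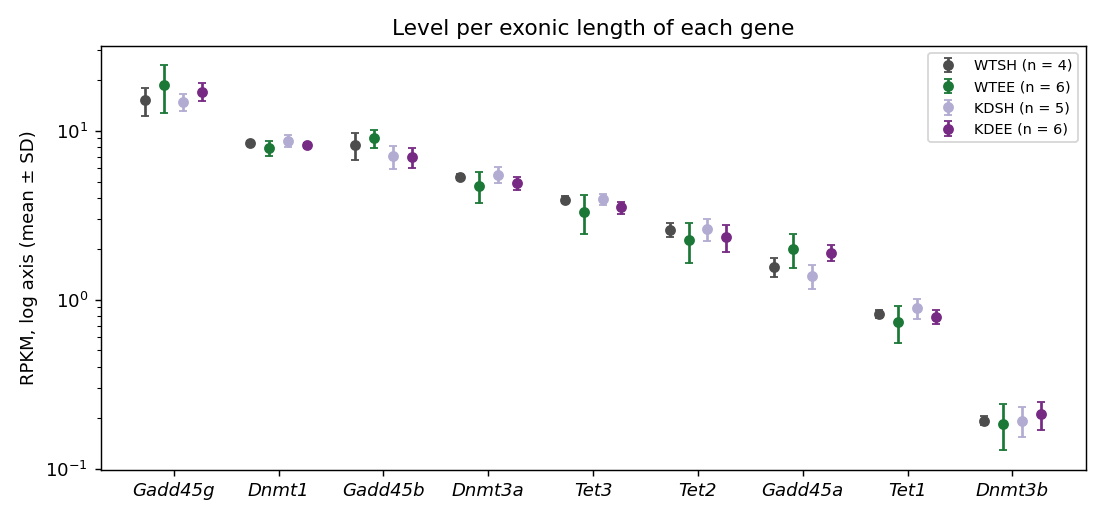
Level of each gene in RPKM on a log axis, as mean ± SD in each of the 4 groups, with genes ordered from the highest to the lowest mean over 21 libraries. The means span from 16.6 RPKM for Gadd45g to 0.19 for Dnmt3b, and within a gene the groups lie close together.

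None of the 9 genes passed the threshold of the study (adjusted p below 0.05, log2 fold change beyond 0.38 in either direction) in any of 7 comparisons by edgeR's quasi-likelihood test with Benjamini-Hochberg adjustment. The share of all 20187 genes called was 0% in 6 of the comparisons, and 0.00495% (1 gene) for housing averaged over genotypes. At an unadjusted p under 0.05, 1 member was past it for WTEE against WTSH (6.55% of all genes), 1 for KDEE against KDSH (11.6%), 0 for KDSH against WTSH (1%) and 1 for KDEE against WTEE (4.99%). The corresponding numbers were 2 for housing averaged over genotypes (18.9% of all genes), 1 for genotype averaged over housing (1.9%) and 0 for the interaction, the difference between the enrichment effects of MSK1 KD and WT mice (3.26%). With 1322 genes at an unadjusted p under 0.05 in WTEE against WTSH and 2345 in KDEE against KDSH, and none passing after adjustment, the adjusted p values below are those of edgeR over all genes tested. They set each group difference against the spread between these mice and take the number of genes tested into account. Without WTEE sample 10 the members at an unadjusted p under 0.05 were Gadd45a, Dnmt3a and Tet3 for KDEE against KDSH (22.1% of all genes) and for housing over both genotypes (18.8%), and none for WTEE against WTSH (3.93%). Over all 24 libraries they were Gadd45a, Gadd45g and Tet3 for WTEE against WTSH (18.3% of all genes) and over both genotypes (25.6%).

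**Figure D2:**
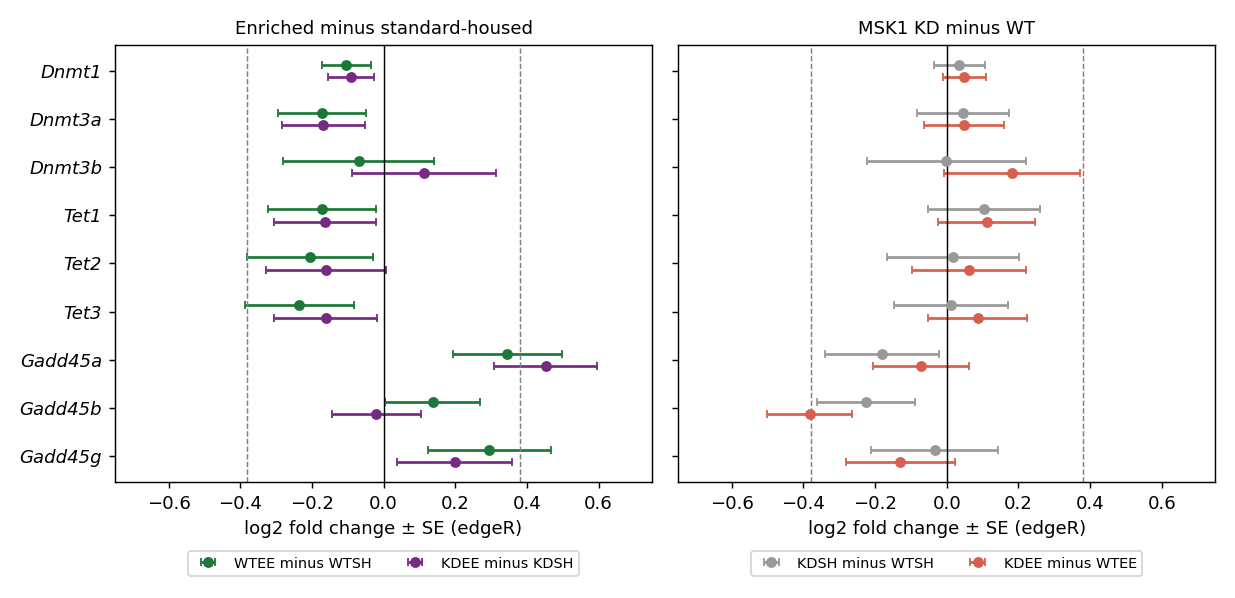
Log2 fold change ± SE of each gene by edgeR, enriched minus standard-housed in each genotype on the left and MSK1 KD minus WT in each housing on the right, with dashed lines at -0.38 and 0.38. Gadd45a lies to the right of 0 in both genotypes on the left, at 0.34 and 0.45, and Gadd45b lies to the left of 0 in both housings on the right, at -0.23 and -0.38.

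Among the GADD45 genes, Gadd45a had a higher mean in enriched than in standard-housed mice of both genotypes, without passing the adjusted threshold by edgeR, and had the smallest p value of the 9 for housing. Its normalized counts (counts scaled to the mean effective library size) were 119.9, 115, 144 and 151 in the 4 WTSH libraries, and ranged from 129 through a median of 161 to 238 in the 6 WTEE libraries. They were 107, 127, 115, 142 and 93.9 in the 5 KDSH libraries, and ranged from 148 through a median of 149.7 to 186 in the 6 KDEE libraries. Every KDEE library lay above every KDSH library, whereas WTSH and WTEE overlapped, with 4 of 6 WTEE libraries above all of WTSH. This separation of KDEE and KDSH was shared by 1.84% of all genes tested, and no other member showed it in KDEE against KDSH. No member was without overlap in WTEE against WTSH (0.986% of all genes), KDSH against WTSH (0.644%) or KDEE against WTEE (0.624%).

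The log2 fold change of Gadd45a with enrichment was 0.45 ± 0.14 (SE, adjusted p = 0.350) in MSK1 KD mice and 0.34 ± 0.15 (adjusted p = 0.651) in WT mice, both at an unadjusted p under 0.05. An exact two-sided permutation test of the normalized counts gave p = 0.0043 for KDEE against KDSH, the smallest that 6 against 5 libraries allow, and p = 0.067 for WTEE against WTSH. Groups that do not overlap always give this smallest p, so it only restates the separation above. Neither p was adjusted over genes. The effects of the genotypes differed by 0.11 ± 0.21 on the log2 scale (interaction, adjusted p = 1.0), and by 0.23 ± 0.18 (adjusted p = 0.972) without WTEE sample 10. Over both genotypes the difference was 0.40 ± 0.10 (adjusted p = 0.179).

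DESeq2's Wald test, the method of the study, gave Gadd45a the same difference over both genotypes, 0.40, with an adjusted p of 0.047. It was then the only member among 41 genes called of 17608 (0.233%), and DESeq2 called 0 members in the other 6 comparisons. Of all genes, DESeq2 called 118 of 26970 for KDEE against WTEE and 14 of 16167 for KDEE against KDSH. It called 20 of 26250 for the interaction and 2 of 37779 for WTEE against WTSH. For KDSH against WTSH and for genotype averaged over housing it called 0 of 37779. With the blood level as a covariate the edgeR difference of Gadd45a over both genotypes was 0.48 ± 0.13, with the choroid plexus level 0.37 ± 0.11 and with the transcript length index described further on 0.26 ± 0.09. The first and last of these covariates were chosen after the data were seen. The adjusted p was 0.390, 0.559 and 0.429. The highest value of Gadd45a was in WTEE sample 10. With it left out the difference was 0.22 in WT mice, no longer at an unadjusted p under 0.05, and 0.34 over both genotypes. When KDSH sample 6 was included its value, 160.1 on the scale of all 24 libraries, was above all kept KDSH libraries, at 87.4 to 133, and the difference in MSK1 KD mice was 0.35.

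Gadd45b, the member known for induction by neuronal activity, had a lower mean in MSK1 KD than in WT mice in both housings, and neither difference passed the adjusted threshold. Its normalized counts were 758, 513, 557 and 684 in WTSH, and 564, 555, 620.3, 393 and 553 in KDSH. In WTEE they ranged from 595 through a median of 679 to 805, and in KDEE from 419 through 547 to 608. In enriched mice 5 of the 6 KDEE libraries lay below all WTEE libraries, and the remaining one overlapped with the lowest of WTEE. In standard-housed mice 1 of 5 KDSH libraries lay below all of WTSH.

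The log2 fold change of Gadd45b in KDEE against WTEE was -0.38 ± 0.12 (SE, adjusted p = 0.361), and an exact two-sided permutation test gave p = 0.0043, not adjusted over genes. In KDSH against WTSH it was -0.23 ± 0.14 (adjusted p = 1.0). Averaged over housing it was -0.30 ± 0.09 (adjusted p = 1.0). The difference between KDEE and WTEE was -0.33 without WTEE sample 10. Over all 24 libraries the difference between KDSH and WTSH was -0.07 ± 0.13 and the average over housing -0.22. Leaving out WTSH sample 2 gave -0.13 for KDSH against WTSH, and leaving out WTSH sample 5 gave -0.31. The left-out WTSH samples 4 and 7, at 435 and 429.9, lay below the kept WTSH libraries, at 479 to 703 on that scale. The enrichment difference of Gadd45b was 0.14 ± 0.13 in WT and -0.02 ± 0.12 in MSK1 KD mice, and these differed by -0.16 ± 0.18 (interaction, adjusted p = 1.0). Without WTEE sample 10 the WT difference was 0.09 and the interaction -0.10, and over all 24 libraries they were 0.26 and -0.32.

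Gadd45g, the most abundant member, had values of 997.6, 655, 969 and 790.2 in WTSH and 893, 969, 792, 773 and 742 in KDSH. It ranged from 814 through a median of 911 to 1662 in WTEE, and from 765 through 1002 to 1067 in KDEE. The groups overlapped in both genotypes, although 4 of 6 KDEE libraries were above all of KDSH. The log2 fold change with enrichment was 0.29 ± 0.17 (adjusted p = 0.651) in WT and 0.20 ± 0.16 (adjusted p = 0.596) in MSK1 KD mice. It was 0.25 ± 0.12 (adjusted p = 0.262) over both, with an unadjusted p under 0.05.

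The value of 1662 belonged to WTEE sample 10, and the next highest of all 21 libraries was 1153. Without that library the difference of Gadd45g was 0.12 in WT mice and 0.16 over both genotypes, and the unadjusted p was over 0.05. With the choroid plexus level as a covariate it was 0.11 over both, and with the blood level 0.15. The part of these tissues in the difference was not tested beyond these fits.

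**Figure D3:**
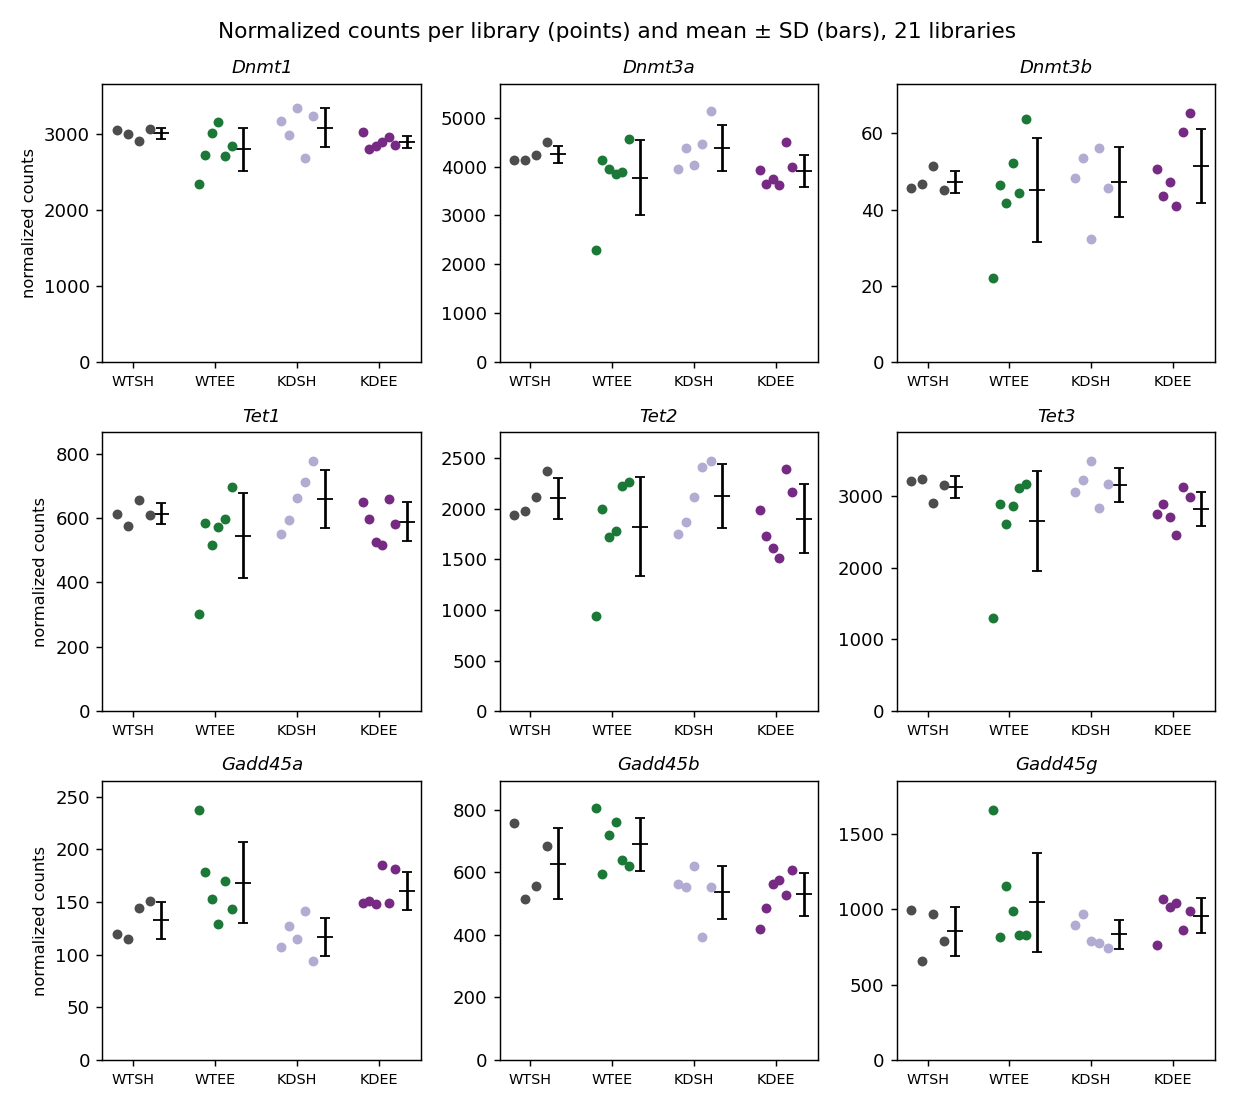
Normalized counts of the 9 genes in each of the 21 libraries (points) with the mean ± SD of the group (bars), on axes that start at 0. In the panel of Gadd45a every KDEE point is above every KDSH point, and WTEE sample 10 is the lowest point of the 3 methyltransferases and 3 TET genes and the highest of the 3 GADD45 genes.

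Among the methyltransferases, Dnmt3a, the main de novo enzyme of mature neurons, had lower means with enrichment in both genotypes without passing the test. Its normalized counts were 4141, 4129, 4233 and 4495 in WTSH and 3942, 4371, 4025, 4463 and 5132 in KDSH. They ranged from 2289 through a median of 3916 to 4561 in WTEE, and from 3614 through 3839 to 4498 in KDEE. In WT mice 5 of 6 enriched libraries were below all standard-housed ones, and in MSK1 KD mice 4 of 6 were. The log2 fold change was -0.17 ± 0.12 (adjusted p = 0.655) in WT and -0.17 ± 0.12 (adjusted p = 0.535) in MSK1 KD mice, and -0.17 ± 0.08 (adjusted p = 0.277) over both. Without WTEE sample 10 the difference was -0.06 ± 0.08 in WT, -0.16 ± 0.07 (adjusted p = 0.178) in MSK1 KD and -0.11 ± 0.05 (adjusted p = 0.243) over both genotypes, and the last 2 were then at an unadjusted p under 0.05.

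Dnmt1, the maintenance enzyme, had 3055, 3008, 2915 and 3065 normalized counts in WTSH and 3171, 2983, 3339, 2685 and 3245 in KDSH. It ranged from 2341 through a median of 2789.8 to 3159 in WTEE and from 2804 through 2875 to 3022 in KDEE, so that the groups overlapped in both genotypes. The differences were small and had the smallest errors of the 9 genes: -0.10 ± 0.07 (adjusted p = 0.651) in WT, -0.09 ± 0.06 (adjusted p = 0.552) in MSK1 KD and -0.10 ± 0.05 (adjusted p = 0.264) over both. It was -0.06 in WT mice without WTEE sample 10.

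Dnmt3b, the other de novo enzyme, ranged from 45.1 to 51.6 normalized counts in WTSH, 22.1 to 63.8 in WTEE, 32.4 to 56.2 in KDSH and 41.0 to 65.5 in KDEE. Its log2 fold change with enrichment was -0.07 ± 0.21 (adjusted p = 0.908) in WT and 0.11 ± 0.20 (adjusted p = 0.816) in MSK1 KD mice. The WT value was 0.07 without WTEE sample 10, and at these counts no difference was detected. No methyltransferase differed between genotypes at an unadjusted p under 0.05, with log2 fold changes of at most 0.18 in size in either housing.

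The 3 TET genes were all lower on average in enriched mice of both genotypes, and none passed the test. Tet3, the most abundant of them, had 3202, 3234, 2905 and 3157 normalized counts in WTSH and 3053, 3219, 3488, 2828 and 3167 in KDSH. It ranged from 1293 through a median of 2872 to 3159.5 in WTEE and from 2456 through 2815 to 3120.3 in KDEE. The log2 fold change was -0.24 ± 0.15 (adjusted p = 0.651) in WT, -0.16 ± 0.14 (adjusted p = 0.628) in MSK1 KD and -0.20 ± 0.10 (adjusted p = 0.295) over both genotypes. The value of 1293, that of WTEE sample 10, was 49.5% of the next lowest of WTEE. With this library left out the difference was -0.09 ± 0.07 in WT, -0.16 ± 0.06 (adjusted p = 0.168) in MSK1 KD and -0.12 ± 0.05 (adjusted p = 0.170) over both genotypes, and the last 2 were then at an unadjusted p under 0.05. An exact two-sided permutation test of Tet3 gave p = 0.043 for KDEE against KDSH and p = 0.067 for WTEE against WTSH, neither adjusted over genes. By edgeR over the 21 libraries the unadjusted p of Tet3 was 0.273 and 0.138. For KDEE against KDSH the permutation test gave p = 0.078 for Dnmt3a, 0.152 for Tet1 and 0.290 for Tet2.

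Tet1, the least abundant TET gene, ranged from 577 to 657 normalized counts in WTSH, 302 to 696 in WTEE, 552 to 779 in KDSH and 518 to 660.4 in KDEE. Its log2 fold change with enrichment was -0.17 ± 0.15 (adjusted p = 0.680) in WT and -0.16 ± 0.14 (adjusted p = 0.618) in MSK1 KD mice. Tet2 ranged from 1938 to 2378 in WTSH, 939 to 2269.5 in WTEE, 1755 to 2476 in KDSH and 1510.4 to 2399 in KDEE. Its log2 fold change was -0.21 ± 0.18 (adjusted p = 0.676) in WT and -0.16 ± 0.17 (adjusted p = 0.677) in MSK1 KD mice. Without WTEE sample 10 the WT values were -0.05 for Tet1 and -0.07 for Tet2. For these genes the MSK1 KD and WT effects of enrichment differed by 0.01 ± 0.21 (Tet1), 0.04 ± 0.24 (Tet2) and 0.07 ± 0.21 (Tet3), and without WTEE sample 10 by -0.11 ± 0.14, -0.09 ± 0.18 and -0.06 ± 0.09. Between genotypes the TET genes differed by at most 0.11 on the log2 scale in either housing.

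In total, 5 of the 9 genes (Dnmt1, Dnmt3a, Tet1, Tet2 and Tet3) had lower means with enrichment in both genotypes and 2 (Gadd45a and Gadd45g) had higher means in both, and each of these is a direction of a mean that did not pass the test. Over all genes tested, 34.3% were lower in both and 36.2% higher in both. The median absolute log2 fold change of the 9 genes was 0.17 in WT and 0.16 in MSK1 KD mice, against 0.12 and 0.12 over all genes tested. It was 0.03 for KDSH against WTSH and 0.09 for KDEE against WTEE, against 0.06 and 0.08 over all genes. The WT value depended on WTEE sample 10. Without that library the WT differences were at most 0.12 in size, other than 0.22 for Gadd45a. Those of KDEE against WTEE were then at most 0.07 in size, other than -0.33 for Gadd45b. The median over all genes without that library was not computed.

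The levels of the 9 genes moved with the long-minus-short index across libraries. Across 21 libraries, Pearson's r with the index was 0.95 for Dnmt3a, 0.94 for Tet1, 0.93 for Tet2 and 0.95 for Tet3, and -0.71 for Gadd45a, -0.42 for Gadd45b and -0.84 for Gadd45g. These were, with WTEE sample 10 left out, 0.82, 0.80, 0.84 and 0.74, and -0.57, -0.16 and -0.68. For Dnmt1 and Dnmt3b r was 0.72 and 0.71 with that library and 0.37 and 0.21 without it. The values are descriptions across libraries that share depth and composition, and the index had lower medians in the enriched groups, -0.01 in WTEE and -0.04 in KDEE, than in WTSH and KDSH, 0.12 and 0.22.

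When the index was added to the model as a covariate, the enrichment difference of Tet1 was 0.04 in WT and 0.01 in MSK1 KD mice, that of Tet2 0.06 and 0.04, and that of Tet3 -0.02 and 0.02. The difference of Dnmt3a was 0.01 and -0.02. The lower values of these long transcripts in enriched mice were thus not present with this covariate. The difference of Gadd45a kept its direction, at 0.17 ± 0.13 in WT, 0.35 ± 0.12 (adjusted p = 0.261) in MSK1 KD and 0.26 ± 0.09 (adjusted p = 0.429) over both genotypes. The difference of Gadd45g over both genotypes was 0.03 ± 0.08, and that of Gadd45b between KDEE and WTEE was -0.34 ± 0.11 (adjusted p = 0.426). These fits were chosen after the data were seen, and what sets the index in a library was not tested.

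**Figure D4:**
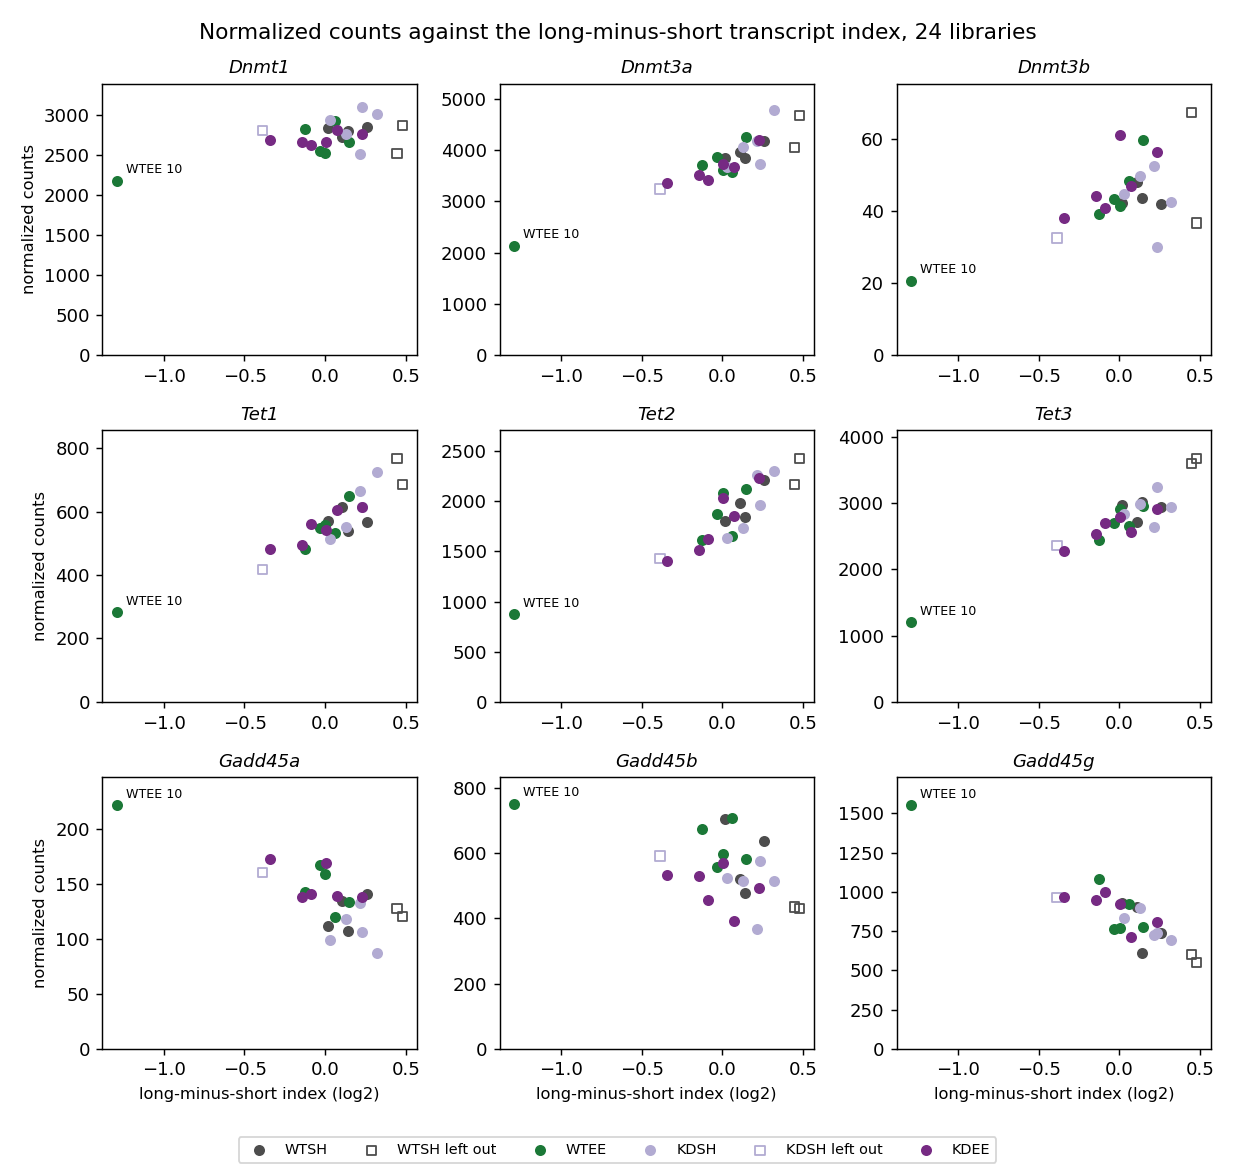
Normalized counts of the 9 genes, scaled over all 24 libraries, against the long-minus-short transcript index of the library (log2), with filled circles for kept and open squares for left-out libraries. Counts of Dnmt3a and the TET genes are higher, and those of Gadd45g lower, at higher values of the index, with WTEE sample 10 at -1.29 at the far left and the left-out WTSH libraries at 0.45 and 0.48 at the far right.

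The left-out libraries are compared with the kept libraries of their own group on the scale of all 24. WTSH sample 7 was above its group for 5 members and below it for 3, and WTSH sample 4 above for 3 and below for 3. Tet3, at 3599 and 3669.6 in samples 4 and 7 against 2715 to 3016 in the kept WTSH libraries, and Tet1, at 768 and 687 against 538 to 614, were above in both. Gadd45g, at 599.8 and 550.4 against 611 to 926, and Gadd45b were below in both. The 2 libraries had 34 and 46 raw counts of Gadd45a, the fewest of the 24.

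KDSH sample 6 went the other way. It was below the kept KDSH libraries for Dnmt3a (3239 against 3665 to 4772), Tet1 (416 against 513 to 724), Tet2 (1429.9 against 1631 to 2302) and Tet3 (2359 against 2644 to 3238). It was above them for Gadd45a, Gadd45b (591 against 368 to 576) and Gadd45g (964 against 690.2 to 899). Its long-minus-short index was -0.39, whereas that of WTSH samples 4 and 7 was 0.45 and 0.48.

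Across the 21 libraries Dnmt3a and the TET genes were alike, with r from 0.85 to 0.93 over their 6 pairs on the log2 CPM scale. With group means removed r was 0.83 to 0.93. Without WTEE sample 10, r was 0.50 to 0.82 with group means kept, and 0.31 to 0.83 with group means removed. Gadd45g ran opposite to Tet2 (r = -0.83, and -0.64 without WTEE sample 10), and Gadd45a opposite to Dnmt1 (-0.82 and -0.73). The GADD45 genes were less alike among themselves, with r from 0.22 for Gadd45a and Gadd45b to 0.59 for Gadd45a and Gadd45g. Without WTEE sample 10 these were -0.0025 and 0.35, and r of Gadd45b and Gadd45g went from 0.53 to 0.39.

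The genes with the pattern most like each member, by Pearson's r over 21 libraries, were Chrm4, Ube2o and Pak6 for Dnmt1 (r 0.91 for each) and RP24-94F12.6, Mau2 and Srrm2 for Dnmt3a (0.97 for each). For Dnmt3b they were Fnbp1, Sema6d and 2600006K01Rik (0.84 to 0.85). For Tet1 they included Ubr1 and Cnot1 (0.96 for each), for Tet2 Apc, Son and Usp34 (0.97 to 0.98), and for Tet3 Klhl3, Kcnj6 and Xpo5 (0.97 to 0.98). For Gadd45a they were Cd14, Gtf2f2 and S100a6, with r of 0.94, 0.87 and 0.87, for Gadd45b Sap30, Arl4d and Neu1 (0.76 to 0.82), and for Gadd45g Hyal2, Ninj1 and Gcat (0.90 to 0.92). Without WTEE sample 10, r with Cd14, the lipopolysaccharide co-receptor of myeloid cells, was 0.91 for Gadd45a. The 5 microglia markers together ranged from 283 to 353 CPM in WTSH and from 300.5 to 417 in WTEE, and from 258 to 338 in KDSH and from 296 to 383 in KDEE, and their part in the level of Gadd45a was not tested. In bulk tissue, fewer cells of a type and less RNA per cell cannot be told apart.

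Of 42 other genes of the pathway (readers of methylation, partners of the methyltransferases, base excision repair, methyl donor metabolism and the supply of the TET co-substrate), 41 were tested and 0 passed the adjusted threshold in any of the 7 comparisons by edgeR or by DESeq2. At an unadjusted p under 0.05, 15 of the 41 (36.6%, against 18.9% of all genes) were past it for housing over both genotypes, 8 higher and 7 lower in enriched mice. The numbers were 4 in WTEE against WTSH (6.55% of all genes), 6 in KDEE against KDSH (11.6%), 0 in KDSH against WTSH (1%) and 2 in KDEE against WTEE (4.99%). The median absolute log2 fold change of the list was 0.13 in WT and 0.13 in MSK1 KD mice with enrichment, close to 0.12 over all genes. For housing over both genotypes it was 0.10, against 0.11 over all genes. The list was chosen with earlier results of these data known, so these shares are descriptions and not a test of the pathway.

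In WT mice the smallest p values of this list with enrichment belonged to Tdg and Apobec3. The log2 difference of Tdg, the glycosylase that removes the products of TET enzymes, was -0.17 ± 0.07 (adjusted p = 0.651) in WT and -0.03 ± 0.07 in MSK1 KD mice. That of Apobec3, a cytidine deaminase, was 0.31 ± 0.14 (adjusted p = 0.651) in WT mice.

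In MSK1 KD mice the smallest p values belonged to Uhrf2 and Idh2. The log2 difference of Uhrf2, a reader of 5-hydroxymethylcytosine, was -0.22 ± 0.07 (adjusted p = 0.339), and -0.18 ± 0.05 (adjusted p = 0.185) over both genotypes. That of Idh2, a mitochondrial enzyme that makes the 2-oxoglutarate used by TET enzymes, was 0.33 ± 0.11 (adjusted p = 0.350).

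Between genotypes, Neil2, a repair glycosylase, differed by 0.26 ± 0.13 (adjusted p = 1.0) and Trdmt1, an RNA methyltransferase related to Dnmt1, by -0.16 ± 0.09 (adjusted p = 1.0) in standard-housed mice. In enriched mice, Apex1, the abasic site endonuclease, differed by -0.17 ± 0.07 (adjusted p = 0.912) and Cxxc4, a CpG-binding partner of Tet2, by 0.14 ± 0.07 (adjusted p = 0.957). Over both genotypes, the enrichment difference of Uhrf1, which brings Dnmt1 to replicated DNA, was 0.06 ± 0.14 (adjusted p = 0.833).

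Gadd45b is often grouped with immediate early genes, and of 12 of these 0 passed the adjusted threshold by edgeR or by DESeq2 in any comparison. Averaged over housing, the log2 difference of Fos between MSK1 KD and WT mice was -0.42 ± 0.20 (adjusted p = 1.0). When 1 library was left out it was from -0.56 to -0.31, and its unadjusted p by edgeR was from 0.0019 to 0.137. Fos was 1 of 2 among the 12 at an unadjusted p under 0.05 by edgeR, against 1.9% of all genes. DESeq2 gave 5 of the 12, and 643 of 37779 genes. Arc, Egr1 and Npas4 differed by -0.10 ± 0.16, 0.06 ± 0.11 and -0.02 ± 0.18.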

How the data were processed

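Hippocampal poly(A) libraries (TruSeqv2) were sequenced as read pairs. After trimming (Skewer) and alignment to GRCm38 (STAR), the authors deposited raw counts of uniquely aligned read pairs per gene symbol, made with HTSeq without regard to strand and not normalized. Read pairs on exons of more than 1 gene were set apart as ambiguous at that step and counted for none of them. Gene positions and lengths came from GENCODE M21 (95.1% of symbols matched 1 gene).

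Counts were tested with edgeR 4.0.16 (TMM normalization, default filter on low counts, quasi-likelihood test) in R 4.3.3 with the 4 groups in 1 model, and DESeq2 1.42.0 was an alternative. SE is the log2 fold change divided by the square root of F. Single genes were compared with exact two-sided permutation tests in scipy. RPKM used TMM-adjusted CPM and the union of exons, and correlations used log2 CPM with a prior count of 2. Mouse numbers occur in 1 group each, so samples were unpaired. Lane was not given in the sources used here. The fit was tested on simulated data. The 9 genes and all lists were chosen with earlier results of these data known. The genes named were the 9, Tdg, Uhrf1, Uhrf2 and, in each comparison of a pair of groups, the 2 other pathway genes with the smallest p, the 3 genes most like each member, Fos, Arc, Egr1, Npas4 and Rps6ka5, other than 2 genes not reported here, neither of which had 1 of those smallest p. Alternatives were other size factors, other filters, no fold threshold, all 24 libraries, only the groups compared, a robust fit, covariates, and leaving out each library. Alternative levels used the longest transcript or all 24 libraries.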

Additional observations from a re-analysis of the deposited data

Results flagged for a closer look

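Of 36 combinations of a gene and a group, 2 had a library whose gap to its nearest neighbour was larger than Dixon's 95% critical value for 6 samples, a test that chance passes about 1 time in 20. Both were WTEE sample 10. For Dnmt3a its normalized count was 2289 against 3841 to 4561 in the other 5 WTEE libraries, a gap of 0.683 of the range of the group. For Tet3 it was 1293 against 2610.4 to 3159.5, a gap of 0.706 of the range. No interaction between genotype and housing passed a threshold for any of the 9 genes (edgeR).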

How the results depend on the processing

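By edgeR, 0 of the 9 genes were called in each of the 7 comparisons under every alternative run, and DESeq2 called 1, Gadd45a for housing averaged over genotypes, with a log2 fold change of 0.398. No paired analysis was possible because the mouse numbers of the groups are not shared. Of 1299 alternative values of 41 log2 fold changes in the text, 1277 kept their direction and their side of the threshold and 21 reversed. With the long-minus-short index as a covariate, the values that reversed were 0.0137 for Dnmt3a, 0.163 for Dnmt3b, 0.0414 for Tet1 and 0.0578 for Tet2 in WT mice, 0.0142 for Tet1, 0.0436 for Tet2 and 0.0238 for Tet3 in MSK1 KD mice, 0.0278 for Tet1, 0.0507 for Tet2 and 0.0043 for Tet3 over both genotypes, and 0.0145 for the interaction of Gadd45g. Uhrf1 over both genotypes was -0.0262 with the choroid plexus level and -0.167 with the blood level as a covariate. Leaving out each of the 21 libraries gave values from -0.115 to 0.043 for Gadd45b in MSK1 KD mice, from -0.187 to 0.0683 for Dnmt3b in WT mice, from -0.172 to 0.0872 for the interaction of Gadd45g and from -0.0107 to 0.151 for Uhrf1. The causes were not tested. The log2 fold change of Gadd45a stayed between 0.34 and 0.44 over both genotypes when 1 library was left out, and that of Gadd45b in KDEE against WTEE between -0.42 and -0.33. With the longest transcript as length, the RPKM of 6 genes moved by more than 1 SD, to 4.47 for Tet2, 8.70 for Dnmt3a, 5.55 for Tet3, 2.502 for Gadd45a, 10.4 for Dnmt1 and 9.66 for Gadd45b, in the same order of levels. The 23 to 62 counts of Dnmt3b limit the precision of its values.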
